A study of Mus musculus and Rattus norvegicus with 53 samples.

Results

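The report concerns 48 genes of mitosis and cytokinesis, chosen by symbol from the 24016 genes listed in the mouse counts: cyclins and CDK1 activators, mitotic kinases, spindle checkpoint, chromosomal passenger, kinetochore, anaphase-promoting, spindle, cytokinesis and condensin genes, with Top2a and Mki67. All 48 passed the filter on low counts in both experiments. Schwann cells (SCs) carried a tdTomato reporter switched on by a Cre transgene that marks the neural crest lineage, and tdTomato+ cells were sorted by FACS from sciatic nerves of mice aged 6 to 8 weeks. In the pooled experiment each library came from the nerves of 3 mice, with 4 libraries each of intact nerve (iSCs), distal stump (dSCs) and bridge (bSCs), 6 days after transection. In the single-nerve experiment each library came from 1 nerve, and intact nerves gave 5 libraries, the distal stump 3 per day at 6 times (day 1, 2, 4, 6, 8 or 10) and the bridge 3 per day on days 4, 6, 8 and 10. All mice carried the reporter, and the intact nerves of the pooled experiment were the contralateral nerves of transected mice. The study describes the intact single nerves as contralateral too. The labels give them animal numbers that no injured nerve carries, so they were not paired with injured nerves.

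Cyclin A2 and the B-type cyclins activate CDK1, which drives a cell into mitosis together with Polo-like and Aurora kinases. The spindle checkpoint holds the cell until every kinetochore is attached, after which CDC20 and the anaphase-promoting complex trigger sister separation, and the central spindle places the cleavage furrow. Differentiated SCs of an intact adult nerve rarely divide, whereas SCs of a transected nerve re-enter the cell cycle. Many genes of this group share promoter elements, the cell cycle homology region (CHR) and the CCAAT box.

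Promoter sequence was read for the members to show these elements. A RefSeq window of 300 bases, 250 before and 50 after the start, was listed for 41 of the 48 members. A CHR (TTTGAA or TTCGAA on either strand) lay in 32 of the 41, or 78.0%, against 19.2% of 32851 promoters of the same length. CCAAT, on either strand, lay in 31, or 75.6%, against 37.4% of all promoters. Both lay in 28, or 68.3%, against 7.52%. A match gives letters in a window and not a bound site. The 100 bases upstream of the start, taken as the more upstream of the RefSeq and GENCODE starts, are shown for the 5 members that hold both elements whole within them, with motif matches in capitals, on the strand of the gene and at their mm9 positions, chr7:138703784-138703883 for Bub3, chr4:118109958-118110057 for Cdc20, chr15:102126624-102126723 for Espl1, chr19:37450772-37450871 for Kif11 and chr11:98885504-98885603 for Top2a.
Bub3: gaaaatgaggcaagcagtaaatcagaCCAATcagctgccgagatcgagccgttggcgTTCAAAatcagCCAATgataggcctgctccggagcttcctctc
Cdc20: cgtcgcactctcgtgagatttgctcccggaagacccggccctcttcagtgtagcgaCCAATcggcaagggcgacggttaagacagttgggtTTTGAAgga
Espl1: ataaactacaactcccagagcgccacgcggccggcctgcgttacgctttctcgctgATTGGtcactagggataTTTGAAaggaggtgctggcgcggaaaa
Kif11: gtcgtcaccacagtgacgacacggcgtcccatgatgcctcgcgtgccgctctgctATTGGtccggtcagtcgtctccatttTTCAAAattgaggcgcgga
Top2a: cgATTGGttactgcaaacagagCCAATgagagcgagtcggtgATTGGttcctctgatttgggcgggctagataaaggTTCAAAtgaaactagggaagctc
Bub3 and Top2a each hold 1 CHR here, with 2 CCAAT boxes in Bub3 and 3 in Top2a. Against iSCs in the pooled nerves, the bSC differences were 5.12 (log2) for Top2a and 3.81 for Cdc20, past the test, and 4.47 for Kif11, 2.81 for Espl1 and 0.54 for Bub3, not past it. Whether the 5 differ from each other was not tested.

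Libraries held between 9240883 and 22617054 counts on genes and between 10042 and 15815 genes with a count. CPM stands for a gene's count relative to all gene counts of the library after trimmed-mean scaling. The test was edgeR's quasi-likelihood test with Benjamini-Hochberg adjustment over all genes tested, 13751 in the pooled and 15519 in the single nerves, and "rose" and "called" mean an adjusted p under 0.05. Replicates of the pooled experiment are separate pools of mice, and those of the single nerves are separate nerves. Of the Schwann cell markers Sox10, S100b, Erbb3 and Ngfr, 0 were without counts in the 12 pooled libraries. Against iSCs, 2 of these 4 were called lower in dSCs (Sox10, log2 -1.46, and Erbb3, log2 -2.12) and 1 higher (Ngfr, log2 2.65). In bSCs 2 were called lower (Sox10, log2 -1.39, and S100b, log2 -3.31) and 1 higher (Ngfr, log2 1.95). The summed level of 7 fibroblast markers (Pdgfra, Dpt, Lum, Dcn, Col1a1, Col3a1 and Thy1) was 8704 to 48045 CPM in iSCs, 28881 to 41988 CPM in dSCs and 13146 to 26537 CPM in bSCs. Among the single-nerve libraries the fewest genes were detected in iSC replicates 0 and 1, dSC day 1 replicate 1 and dSC day 2 replicate 0 (10042 to 11138), and 17 to 36 of the 48 members had no count in these 4.

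In the pooled nerves the mitotic genes in sum stood higher in dSCs than in iSCs and higher again in bSCs. Their summed level was 437, 420.2, 419.6 and 469 CPM in the iSC libraries (replicates 1, 2, 4 and 5), 1584, 1397, 1444 and 1048 CPM in the dSC libraries (replicates 1, 2, 3 and 5) and 2744, 2636, 2869.6 and 4641 CPM in the bSC libraries (replicates 1, 2, 3 and 5). The 3 regions did not overlap, and bSC replicate 5 was the highest library, with the highest level of 36 of the 48 members among the bSCs. The 48 genes took 0.0420% to 0.0476% of the counts in iSCs, 0.0998% to 0.154% in dSCs and 0.268% to 0.440% in bSCs. In bulk libraries a smaller share of dividing cells and less mitotic RNA per cell cannot be told apart.

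**Figure D1:**
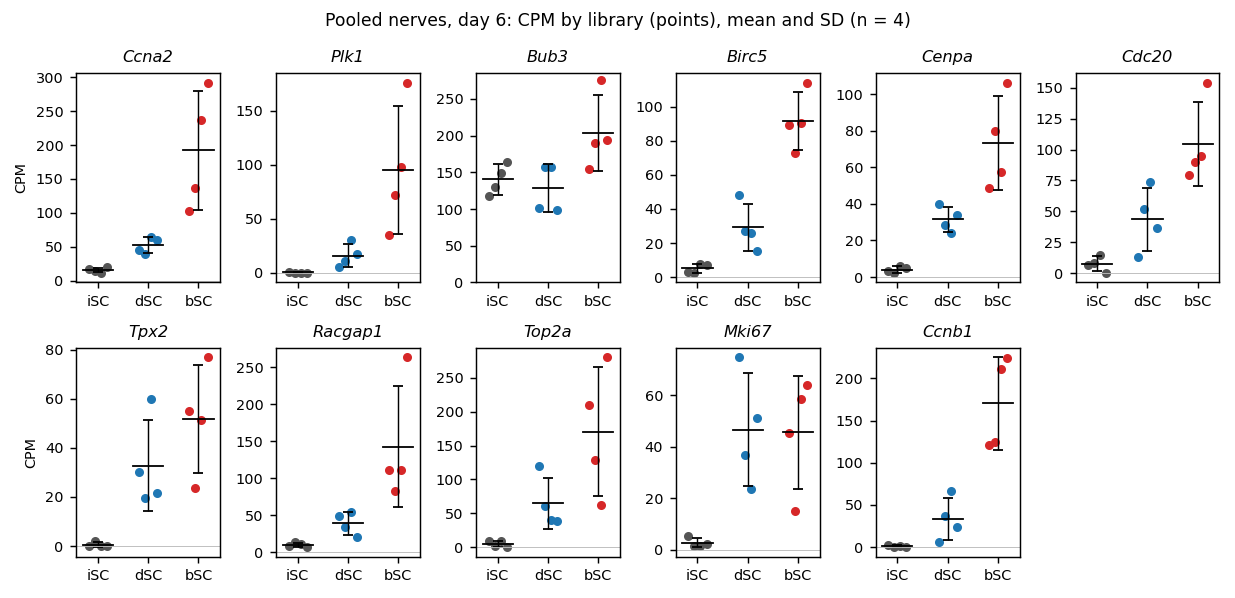
CPM of the members described by library in each of the 12 pooled-nerve libraries, grouped as iSCs, dSCs and bSCs, with each point 1 library and bars for the mean and SD. Ccna2 stood at 11.4 to 19.5 CPM in iSCs, 39.8 to 64.9 CPM in dSCs and 103 to 292 CPM in bSCs, while Bub3 overlapped across the 3 regions.

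Against iSCs, 20 of the 48 members rose in dSCs and 0 fell, where 2.63% of all genes tested rose and 2.69% fell. In bSCs 32 rose and 0 fell, where 7.24% of all genes rose and 7.46% fell. Between bSCs and dSCs, 4 members were higher in bSCs (Ccna2, Birc5, Ube2c and Racgap1) and 0 lower, where 2.31% of all genes were higher and 3.11% lower. The median difference of the 48 members was 2.85 (log2) from iSCs to dSCs, 4.46 from iSCs to bSCs and 1.16 from dSCs to bSCs, where that of all genes tested was -0.02, -0.16 and -0.07. Both comparisons with iSCs share the iSC libraries. The dSC and iSC libraries did not overlap for 28 members that stood higher in dSCs (7.56% of all genes), the bSC and iSC libraries for 37 (10.5%), and the bSC and dSC libraries for 15 (6.77%). The sign was positive for 45, 47 and 46 of the 48 members in the same order. Without iSC replicate 4 the members called in dSCs numbered 12 (345 of all genes, in either direction). Between bSCs and dSCs, 1 member was called without bSC replicate 5 (424 of all genes) and 1 without dSC replicate 5 (325). DESeq2 called 13 members there, but it also called more of all genes than edgeR, with the numbers in the closing section on processing.

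The labels give libraries of the same number in different regions 1 animal number, that of a pool of mice. With the pool as a block, 8 members rose in dSCs (0.887% of all genes), 24 in bSCs (3.57%) and 1 was higher in bSCs than in dSCs (0.705%), and 0 were lower. The 8 were Ccna2, Bub1, Aurkb, Birc5, Cenpa, Ube2c, Prc1 and Mki67, all called without the block too. Of the 32 in bSCs, 23 were called with the block, and the 9 that were not were Cdc25c, Bub1b, Mad2l1, Incenp, Cdca8, Tpx2, Hmmr, Kif20a and Ncaph (adjusted p = 0.0539 to 0.153), while Nek2 was called only with it (adjusted p = 0.0469). Ccna2 was the member called between bSCs and dSCs (log2 1.80, SE 0.28, adjusted p = 0.0302), and Birc5, Ube2c and Racgap1 were not (adjusted p = 0.118, 0.0850 and 0.109). The values by role that follow are without the block.

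**Figure D2:**
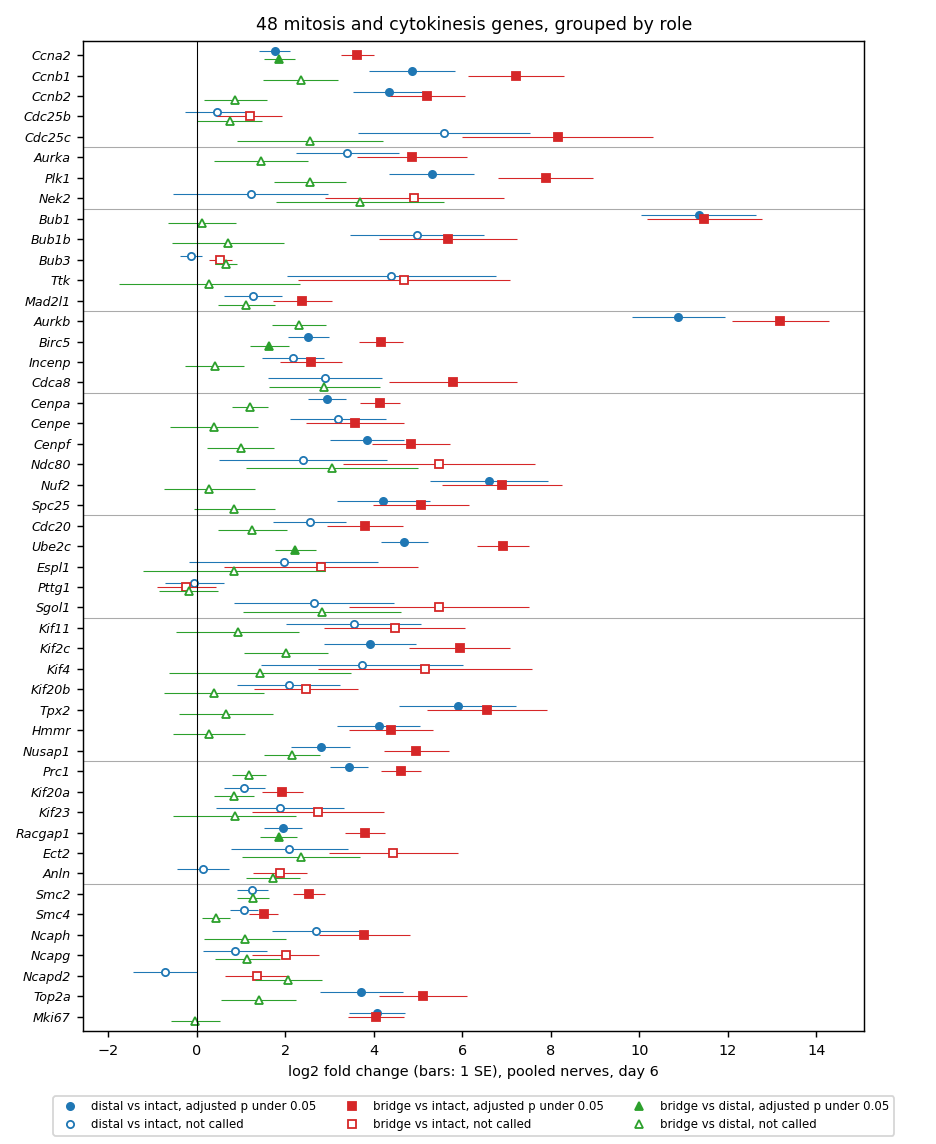
Fitted log2 difference of each of the 48 members in the pooled nerves for dSCs against iSCs, bSCs against iSCs and bSCs against dSCs, ordered by role, with bars of 1 SE and filled points for an adjusted p under 0.05. Most points lie to the right of 0; Bub1 and Aurkb had no count in any iSC library, so their points against iSCs depend on the prior count and are no measured fold.

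The cyclins and CDK1 activators (5 genes) had 3 members that rose in dSCs, 4 in bSCs and 1 between bSCs and dSCs. Ccna2 (cyclin A2, chr3:36463788-36471072, minus strand) was at 16.8, 14.4, 11.4 and 19.5 CPM in iSCs, at 45.9, 39.8, 64.9 and 59.7 CPM in dSCs and at 103, 136, 237 and 292 CPM in bSCs. No region overlapped another for Ccna2. It rose 3.39-fold in dSCs (log2 1.76, SE 0.34, adjusted p = 0.0107) and 12.4-fold in bSCs (log2 3.63, SE 0.37, adjusted p = 9.53e-05), and was 3.65-fold higher in bSCs than in dSCs (log2 1.87, SE 0.34, adjusted p = 0.0105). Ccnb1 (cyclin B1, chr13:101548605-101556525, minus strand) was at 2.81, 0, 1.51 and 0.323 CPM in iSCs, at 6.66, 37.1, 66.1 and 23.5 CPM in dSCs and at 121, 125, 211 and 224 CPM in bSCs. Its 3 regions did not overlap either, and the difference between bSCs and dSCs did not pass the test (log2 2.35, SE 0.85, adjusted p = 0.119), whereas it rose against iSCs in dSCs (log2 4.86, SE 0.98, adjusted p = 0.0129) and in bSCs (log2 7.22, SE 1.08, adjusted p = 8.77e-04). Ccnb2 rose in both regions. Cdc25c, a phosphatase that activates CDK1, rose in bSCs (adjusted p = 0.0223), where it was at 7.31, 4.97, 14.5 and 19.9 CPM, but the iSC libraries hold 2 counts of it in all, so no fold is given. Cdc25b, its relative, did not pass the test in any pooled comparison (log2 0.45 in dSCs and 1.20 in bSCs against iSCs).

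Of the 3 mitotic kinases, 1 rose in dSCs and 2 in bSCs, and 0 were called between the injured regions. Plk1 (Polo-like kinase 1, chr7:129302951-129313389, plus strand) was at 1.09, 0, 0.303 and 0.242 CPM in iSCs, at 5.58, 10.6, 30.7 and 17.3 CPM in dSCs and at 35.5, 71.8, 97.9 and 176 CPM in bSCs. Every bSC library stood above every dSC library, and every dSC library above every iSC library. Plk1 rose in dSCs (log2 5.31, SE 0.96, adjusted p = 0.00695) and in bSCs (log2 7.88, SE 1.06, adjusted p = 5.07e-04), while its difference between bSCs and dSCs did not pass the test (log2 2.57, SE 0.81, adjusted p = 0.0817). Aurka, the centrosomal Aurora kinase, rose in bSCs (log2 4.86, SE 1.24, adjusted p = 0.0186) and did not pass the test in dSCs (log2 3.41, adjusted p = 0.124). Nek2, a centrosome-separating kinase, was at 0, 0, 5.30 and 0 CPM in iSCs, at 0.153, 0, 5.17 and 7.09 CPM in dSCs and at 48.7, 34.8, 17.4 and 59.98 CPM in bSCs, and without the block was called in no pooled comparison despite the separation of the bSCs (adjusted p = 0.287 against dSCs).

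The spindle assembly checkpoint (5 genes) had 1 call in dSCs and 3 in bSCs. Bub1, the checkpoint kinase, had no count in any iSC library, and stood at 41.8, 22.3, 9.01 and 12.3 CPM in dSCs and at 24.9, 8.78, 17.6 and 41.7 CPM in bSCs. The injured regions overlapped. The mean of Bub1 was 413 times an assumed floor of 3 counts over the iSC group in dSCs, and 450.3 times in bSCs. The floor does not cover variation between libraries, and amplified reads are not independent molecules, so these are no measured folds. Bub1 was called against iSCs in both regions (adjusted p = 0.00114 in dSCs and 5.04e-04 in bSCs). Bub3 (chr7:138703905-138715412, plus strand), which loads checkpoint proteins onto kinetochores, was at 117, 130.3, 149.5 and 164 CPM in iSCs, at 102, 157, 158 and 98.0 CPM in dSCs and at 154, 191, 276 and 194 CPM in bSCs. Its regions overlapped in every pair. Bub3 passed no test (log2 -0.13, SE 0.25, adjusted p = 0.903 in dSCs; log2 0.54, SE 0.25, adjusted p = 0.180 in bSCs). Mad2l1, another checkpoint protein, and Bub1b, which encodes BUBR1, rose in bSCs (log2 2.39, SE 0.67, adjusted p = 0.0301, and log2 5.68, SE 1.56, adjusted p = 0.0265).

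The chromosomal passenger complex, which corrects attachments and acts in cytokinesis, had 2 of its 4 members rise in dSCs, 4 of 4 in bSCs and 1 between bSCs and dSCs. Aurkb, its kinase, had no count in any iSC library, and stood at 36.0, 9.55, 9.60 and 6.86 CPM in dSCs and at 64.4, 57.7, 84.4 and 101 CPM in bSCs. All bSC libraries were above all dSC libraries. The mean of Aurkb was 299.96 times the same assumed floor in dSCs and 1488 times in bSCs, again no measured folds. It was called against the pooled iSCs in both regions (adjusted p = 5.83e-04 in dSCs and 9.53e-05 in bSCs). The lack of counts holds for the pooled iSCs only, since the single-nerve iSC libraries had 0, 0, 238, 172 and 74 counts of Aurkb. Its difference between bSCs and dSCs lay just outside the threshold (log2 2.31, SE 0.60, adjusted p = 0.0534). Birc5 (survivin, chr11:117710565-117717069, plus strand) was at 2.96, 2.70, 7.80 and 6.94 CPM in iSCs, at 48.2, 27.4, 25.9 and 15.6 CPM in dSCs and at 89.5, 72.7, 90.2 and 114 CPM in bSCs. The 3 regions did not overlap. It rose 5.74-fold in dSCs (log2 2.52, SE 0.46, adjusted p = 0.00764) and 17.98-fold in bSCs (log2 4.17, SE 0.50, adjusted p = 2.76e-04), and was 3.13-fold higher in bSCs than in dSCs (log2 1.65, SE 0.45, adjusted p = 0.0496). Incenp, the scaffold, and Cdca8, which encodes borealin, rose in bSCs (log2 2.59, SE 0.71, and log2 5.79, SE 1.45).

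Of 6 centromere and kinetochore genes, 4 rose in dSCs (Cenpa, Cenpf, Nuf2 and Spc25), 5 in bSCs (the same genes with Cenpe) and 0 were called between the regions. Cenpa (chr5:30969150-30977200, plus strand), the histone variant that marks centromeres, was at 3.35, 2.24, 5.98 and 4.92 CPM in iSCs, at 39.7, 28.4, 23.9 and 34.1 CPM in dSCs and at 48.7, 80.0, 57.3 and 106 CPM in bSCs. Its bSC and dSC libraries did not overlap, but the difference did not pass the test (log2 1.21, SE 0.40, adjusted p = 0.0933). It rose in dSCs (log2 2.93, SE 0.43, adjusted p = 0.00199) and in bSCs (log2 4.15, SE 0.45, adjusted p = 1.36e-04). Nuf2, a subunit of the microtubule-binding NDC80 complex, ranged from 0 to 0.966 CPM in iSCs and from 13.9 to 45.6 CPM in dSCs, with no overlap, and rose in both regions (log2 6.61, SE 1.33, adjusted p = 0.0131 in dSCs; log2 6.90, SE 1.35, adjusted p = 0.00427 in bSCs). Its partner Ndc80 was not called in any pooled comparison (adjusted p = 0.652 in dSCs and 0.110 in bSCs).

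Of 5 genes of the anaphase-promoting complex and sister separation, 1 rose in dSCs, 2 in bSCs and 1 between bSCs and dSCs. Cdc20 (chr4:118105506-118109957, minus strand), the activator that starts anaphase, was at 6.47, 8.19, 14.996 and 0.161 CPM in iSCs, at 13.2, 51.6, 73.8 and 36.3 CPM in dSCs and at 79.1, 90.0, 94.5 and 154 CPM in bSCs. The bSC libraries stood above all others, and dSCs and iSCs overlapped. It rose in bSCs (log2 3.81, SE 0.86, adjusted p = 0.00972) but did not pass the test in dSCs (log2 2.55, SE 0.81, adjusted p = 0.0972). Ube2c, the ubiquitin-conjugating enzyme of the complex, was at 1.33, 0.763, 0.985 and 0.161 CPM in iSCs, at 14.1, 26.03, 21.5 and 22.6 CPM in dSCs and at 86.2, 81.3, 94.7 and 134 CPM in bSCs. Its 3 regions were separate, and it rose 25.8-fold in dSCs (log2 4.69, SE 0.53, adjusted p = 5.52e-04) and was 4.70-fold higher in bSCs than in dSCs (log2 2.23, SE 0.47, adjusted p = 0.0180). Pttg1, securin, which restrains separase, was at 3.90, 23.2, 22.6 and 76.3 CPM in iSCs, at 38.7, 17.8, 35.5 and 29.7 CPM in dSCs and at 23.4, 21.9, 42.5 and 19.6 CPM in bSCs. It had negative fitted differences in all 3 comparisons, none of them past the test (adjusted p = 0.870 to 0.989). Espl1, which encodes separase, and Sgol1, which protects centromeric cohesin, were not called either (log2 2.81 and 5.48 in bSCs against iSCs).

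Of 7 spindle motors and microtubule proteins, the same 4 (Kif2c, Tpx2, Hmmr and Nusap1) rose in dSCs and in bSCs, and 0 were called between the regions. Tpx2 (chr2:152673700-152721057, plus strand), which nucleates spindle microtubules and activates Aurora A, was at 0, 2.03, 0 and 0 CPM in iSCs, at 30.1, 19.5, 59.8 and 21.6 CPM in dSCs and at 55.2, 23.7, 51.5 and 77.05 CPM in bSCs. It was detected in 1 of 4 iSC libraries, and dSCs and bSCs overlapped. It rose in dSCs (log2 5.90, SE 1.32, adjusted p = 0.0217) and in bSCs (log2 6.56, SE 1.35, adjusted p = 0.00588). Kif11, the motor that separates spindle poles, had a difference of 4.47 (log2) in bSCs that did not pass (adjusted p = 0.0766), and the chromokinesin gene Kif4 and the kinesin gene Kif20b did not pass either.

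Of 6 genes of the central spindle and cytokinesis, 2 rose in dSCs, 3 in bSCs and 1 between bSCs and dSCs. Racgap1 (chr15:99450927-99482087, minus strand), a centralspindlin subunit, was at 9.28, 13.5, 11.1 and 6.94 CPM in iSCs, at 48.9, 34.2, 55.0 and 20.4 CPM in dSCs and at 112, 83.4, 112 and 264 CPM in bSCs. No region overlapped another, and bSC replicate 5 stood apart within the bSCs. It rose 3.87-fold in dSCs (log2 1.95, SE 0.43, adjusted p = 0.0192), and was 3.61-fold higher in bSCs than in dSCs (log2 1.85, SE 0.42, adjusted p = 0.0245). Prc1, which bundles midzone microtubules, was at 8.58, 5.14, 3.86 and 3.71 CPM in iSCs, at 74.4, 63.8, 53.8 and 39.6 CPM in dSCs and at 93.3, 71.0, 159 and 201 CPM in bSCs, and rose 10.9-fold in dSCs (log2 3.44, SE 0.42, adjusted p = 7.01e-04). Anln, which encodes the furrow protein anillin, barely differed between dSCs and iSCs (log2 0.14), with an iSC range of 15.3 to 27.8 CPM, and Ect2, the exchange factor of the furrow, ran from 28.7 to 102 CPM in bSCs without passing the test against iSCs (adjusted p = 0.0577).

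Condensin, topoisomerase and Ki-67 genes (7) had 2 members that rose in dSCs and 5 in bSCs, with 0 called between the regions. Top2a (DNA topoisomerase II alpha, chr11:98854257-98885503, minus strand) was at 8.66, 2.24, 8.71 and 0 CPM in iSCs, at 119, 60.4, 40.0 and 38.3 CPM in dSCs and at 209, 129, 62.5 and 281 CPM in bSCs. The dSC and bSC libraries overlapped, and both stood above iSCs (log2 3.72, SE 0.93, adjusted p = 0.0360 in dSCs; log2 5.12, SE 1.00, adjusted p = 0.00413 in bSCs). Mki67 (Ki-67, chr7:142881471-142908062, minus strand), which coats mitotic chromosomes and is used as a proliferation marker, was at 5.30, 1.63, 1.67 and 2.42 CPM in iSCs, at 74.9, 36.9, 23.6 and 51.2 CPM in dSCs and at 45.2, 15.1, 58.4 and 64.2 CPM in bSCs. Both injured regions stood above iSCs and overlapped each other. Mki67 rose in dSCs (log2 4.08, SE 0.63, adjusted p = 0.00256) and in bSCs (log2 4.05, SE 0.63, adjusted p = 0.00108), with a fitted difference between them of -0.03 (SE 0.55, adjusted p = 0.987). The condensin core genes Smc2 and Smc4 and the condensin subunit gene Ncaph rose in bSCs (log2 2.54, 1.51 and 3.78), and Ncapd2, a further subunit, was at 18.01, 13.99, 23.9 and 8.71 CPM in iSCs, at 19.97, 1.41, 9.97 and 8.13 CPM in dSCs and at 24.6, 44.6, 16.1 and 81.1 CPM in bSCs, without a call.

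Markers of other cells moved with these comparisons. The 12 macrophage markers summed to 229 to 5953 CPM in iSCs, 10547 to 17552 CPM in dSCs and 2681 to 8356 CPM in bSCs. Against iSCs, 12 of 12 had a positive difference in dSCs (3 called) and in bSCs (0 called). From dSCs to bSCs, where the mitotic genes were higher, 11 of the 12 had no positive difference (median -1.22) and 0 were called, and 2 of 7 fibroblast markers were lower in bSCs. Other lists leaned towards bSCs: 4 of 6 endothelial markers had a positive difference (median 0.47, 1 called higher). So did 3 of 4 mural cell markers (median 1.06, 0 called). Of 5 lymphocyte markers 0 passed the filter on low counts. Their part in the mitotic differences was not tested. Reads were not stranded, and the exons of Ccna2, Cdc25b, Cdca8, Cdc20, Ube2c, Kif4, Nusap1, Kif20a and Ncapg overlap those of a gene on the other strand (for Ccna2, Exosc9), so that their reads cannot be told apart there.

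The single nerves give the order in time. The summed level of the members was 546, 476, 1452, 582 and 564 CPM in the iSC libraries (replicates 0, 1, 3, 4 and 5), so that replicate 3 stood far above the others. In dSCs it was 829, 483 and 472 CPM on day 1, 832, 2153 and 2185 CPM on day 2 and 2425, 2234 and 2830.4 CPM on day 4. It was 1125, 1026 and 1859 CPM on day 6, 876, 1189 and 835 CPM on day 8 and 2854, 929.5 and 1755 CPM on day 10. On day 1, 2 of the 3 libraries lay in the range of the iSCs and 1 just below it, the day 4 libraries lay above every iSC library, and the day 8 libraries were again within it. In bSCs the level was 3275, 2155 and 2732 CPM on day 4, 2878, 2246 and 4531 CPM on day 6, 1749, 2122 and 669 CPM on day 8 and 3569.9, 2502 and 3399.5 CPM on day 10. All bSC libraries except day 8 replicate 2 lay above every iSC library.

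**Figure D3:**
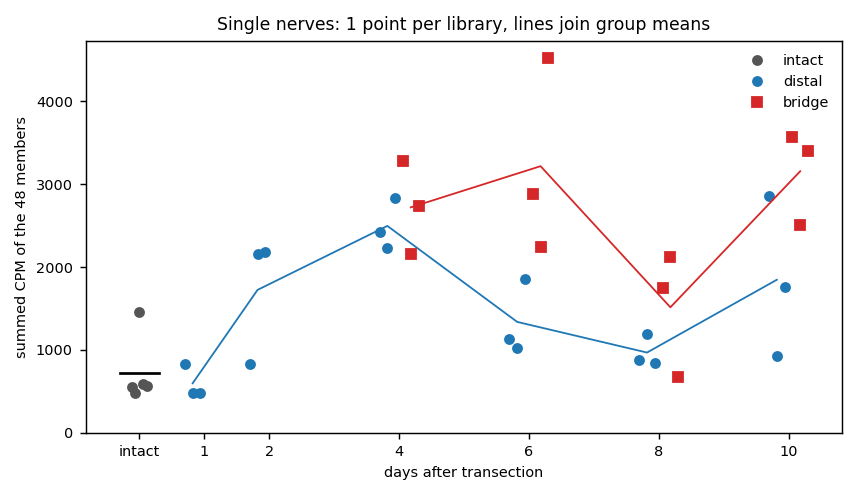
Summed CPM of the 48 members in each of the 35 single-nerve libraries by day after transection, for iSCs, dSCs and bSCs, with each point 1 library. The dSC libraries were at 472 to 829 CPM on day 1 and 2234 to 2830.4 CPM on day 4, and 1 iSC library stood at 1452 CPM against 476 to 582 CPM in the other 4.

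Few single-nerve differences passed the test. Against iSCs, the members called higher in dSCs numbered 0 on day 1 (0.18% of all genes tested), 1 on day 2 (0.374%), 1 on day 4 (1.21%), 1 on day 6 (0.477%), 0 on day 8 (0.277%) and 1 on day 10 (0.322%), each of them Bub1. In bSCs they numbered 2 on day 4 (Bub1 and Birc5; 1.13%), 4 on day 6 (Ccna2, Bub1, Kif20a and Top2a; 0.818%), 0 on day 8 (0.245%) and 4 on day 10 (Ccna2, Bub1, Birc5 and Top2a; 0.889%). No member was called lower on any day, and all these comparisons share the 5 iSC libraries. Where edgeR called 0, an unadjusted p under 0.05 was reached by 2 members on dSC day 1 (6.75% of all genes), 3 on dSC day 8 (8.66%) and 14 on bSC day 8 (9.96%), and DESeq2 called 1 on each of these days. Without iSC replicate 3 the members called numbered 1, 3, 9, 4, 2 and 4 in dSCs from the first to the last day, and 10, 12, 2 and 9 in bSCs. Calls over all genes, in either direction, then numbered 17, 57, 297, 112, 60 and 65 in dSCs, and 232, 262, 49 and 158 in bSCs. With that library they were 28, 69, 268, 86, 47 and 55, and 244, 207, 47 and 201. Without the 4 libraries of fewest genes the members called numbered 5 in dSCs of day 4 and 0 in dSCs of the other days. In bSCs they numbered 7 on each of days 4, 6 and 10, and 0 on day 8. This alternative was chosen after seeing the data. Its calls over all genes are not given here, so these counts have no share to stand against.

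The median difference of the 48 members from iSCs was -0.28 (log2) in dSCs on day 1, 1.90 on day 2, 2.46 on day 4, 1.36 on day 6, 0.88 on day 8 and 2.00 on day 10. It was 2.55, 2.77, 1.54 and 2.80 in bSCs on days 4, 6, 8 and 10. Differences were positive for 17 of 48 members in dSCs on day 1 and for 45 on day 2. Without iSC replicate 3 the day 1 direction turned, with 36 of 48 positive and a median of 0.78, and the dSC medians of the later days were 3.05, 3.26, 2.44, 1.97 and 3.08. The bSC medians without it were 3.78, 4.01, 2.75 and 3.86. On day 4, 24 members stood higher in every dSC library than in every iSC library, against 6.9% of all genes, and on day 1 no member did, against 2.91%. On days 2, 6, 8 and 10, 6, 4, 4 and 6 members did, against 4.07%, 5.73%, 6.13% and 4.7%. In bSCs 26, 30, 3 and 29 members stood apart in this way on days 4, 6, 8 and 10, against 5.55%, 6.23%, 3.82% and 4.61% of all genes. The highest dSC mean fell on day 4 for 29 members, on day 2 for 8, on day 10 for 8 and on day 6 for 3, and the lowest fell on day 1 for 39. The highest bSC mean fell on day 6 for 20 members, on day 10 for 19 and on day 4 for 9, and the lowest on day 8 for 39. These days are an order of means of 3 libraries: between days 10 and 4, edgeR called 0 members in dSCs and 0 in bSCs, with 0 at an unadjusted p under 0.05 (4.56% and 8.85% of all genes) and 0 called by DESeq2.

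The libraries of some days differed widely. On dSC day 2, replicate 0 had the lowest value of 44 members, and replicates 3 and 4 were more alike than any other of 58 pairs of replicates (correlation of log2 CPM 0.958 over 13823 genes, against 0.950 for the next pair and a median of 0.807). They still differed beyond counting noise (chi-square per degree of freedom 49.3) and were kept as 2 libraries. On bSC day 8, replicate 2 was the lowest for 44 members, and on dSC day 10 replicate 0 was the highest for 43. The iSC replicate 3 was the highest iSC library for 34 members. Without bSC day 4 replicate 2, 1 member was called on that day, with a median difference of 2.46.

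**Figure D4:**
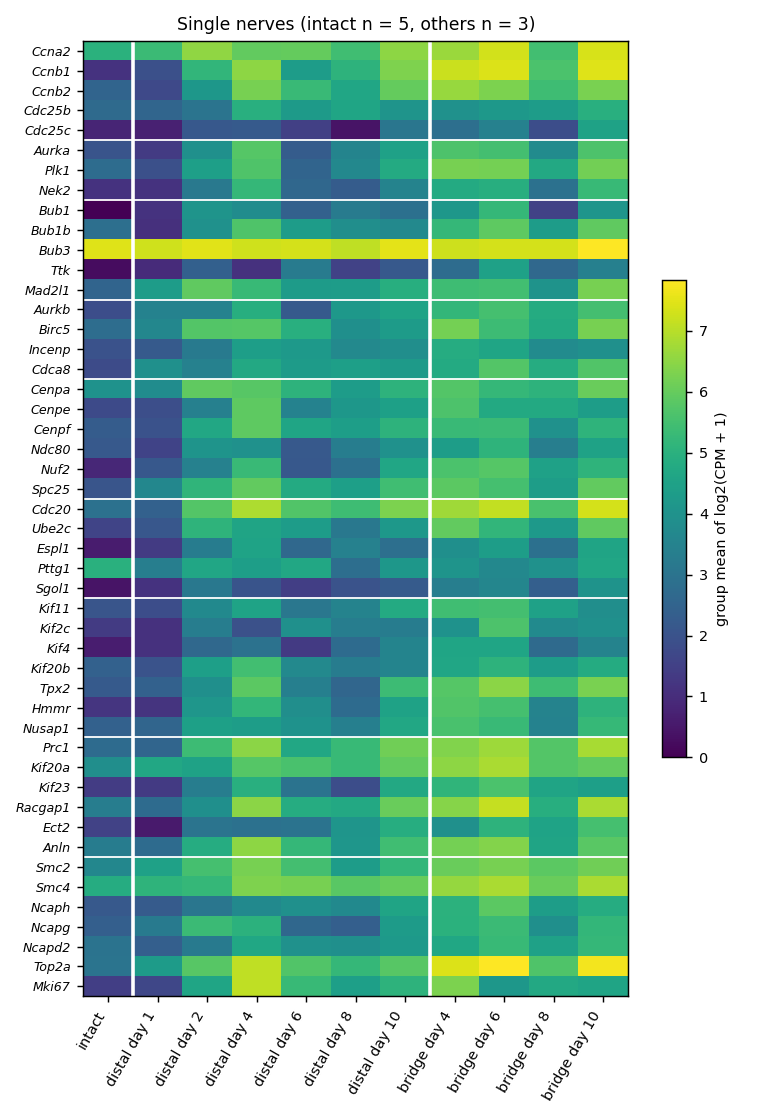
Mean log2(CPM + 1) of each member in the 11 single-nerve groups, rows ordered by role and columns by region and day. In dSCs 39 of 48 members have their lowest mean on day 1 and 29 their highest on day 4, and in bSCs 39 have their lowest mean on day 8.

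Ccna2 was at 17.4, 69.8, 32.5, 26.3 and 28.3 CPM in the iSC single nerves, where replicate 1 was the highest. In dSCs it was at 45.2, 54.2 and 25.7 CPM on day 1, 69.8, 105 and 105 CPM on day 2, 86.9, 54.8 and 49.5 CPM on day 4, 67.0, 55.5 and 66.0 CPM on day 6, 40.5, 42.0 and 43.3 CPM on day 8 and 174, 39.0 and 106 CPM on day 10. In bSCs it was at 177, 52.8 and 109.9 CPM on day 4, 164, 158 and 150.2 CPM on day 6, 60.7, 65.0 and 20.9 CPM on day 8 and 149, 145 and 202 CPM on day 10. Its bSC libraries of days 6 and 10 lay above every iSC library, and those of day 8 lay below the highest one. It rose in bSCs on day 6 (log2 2.18, SE 0.46, adjusted p = 0.0115) and on day 10 (log2 2.25, SE 0.46, adjusted p = 0.0103). Its difference on day 8 was 0.49 (SE 0.46, adjusted p = 0.880).

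Top2a was at 3.63, 0, 65.3, 9.01 and 9.84 CPM in iSCs. In dSCs it was at 25.9, 18.1 and 14.4 CPM on day 1, 12.2, 122 and 109 CPM on day 2, 106, 186 and 122 CPM on day 4, 38.6, 25.8 and 132 CPM on day 6, 29.4, 31.1 and 52.7 CPM on day 8 and 159, 16.3 and 64.4 CPM on day 10. In bSCs it was at 208, 169 and 140.0 CPM on day 4, 189.5, 202 and 311 CPM on day 6, 109, 74.8 and 15.5 CPM on day 8 and 206, 144 and 296 CPM on day 10. Apart from iSC replicate 3, all injured libraries were above all iSC libraries. The gene rose in bSCs on day 6 (log2 3.73, SE 0.92, adjusted p = 0.0332) and day 10 (log2 3.61, SE 0.92, adjusted p = 0.0399), and its difference in dSCs on day 4 did not pass (log2 2.97, SE 0.90, adjusted p = 0.0792).

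Mki67 was 1 of the 9 members with their highest bSC mean on day 4. It was at 0, 0, 50.5, 1.53 and 0.153 CPM in iSCs, and in dSCs at 2.67, 0 and 7.77 CPM on day 1, 3.47, 55.6 and 56.0 CPM on day 2, 124, 115 and 178 CPM on day 4, 24.2, 28.9 and 79.0 CPM on day 6, 23.1, 30.4 and 12.03 CPM on day 8 and 53.0, 30.4 and 21.8 CPM on day 10. In bSCs it was at 68.4, 114 and 59.6 CPM on day 4, 20.9, 3.81 and 50.8 CPM on day 6, 21.7, 41.6 and 18.6 CPM on day 8 and 21.9, 41.8 and 12.95 CPM on day 10. The day 4 dSC libraries were the highest of all single-nerve libraries, above every bSC library of that day. No difference of Mki67 passed the test (day 4 dSCs log2 3.72, SE 1.33, adjusted p = 0.145).

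The checkpoint kinase gene Bub1 was called on more days than any other member, and its iSC libraries hold 1 count in all, in replicate 4, so no fold is given. It was at 8.02, 0 and 0.173 CPM in dSCs on day 1, and at 11.2, 20.9 and 16.4 CPM on day 2, when the difference first passed the test (adjusted p = 0.0282). In bSCs it was at 29.8, 24.05 and 6.08 CPM on day 4 (adjusted p = 0.0121) and at 38.8, 21.5 and 59.1 CPM on day 6 (adjusted p = 0.00750). On bSC day 8 it was at 0, 24.03 and 0 CPM. Birc5 was at 0.140, 11.8, 11.1, 4.79 and 15.96 CPM in iSCs, at 72.5, 84.2 and 63.0 CPM in bSCs on day 4 (log2 3.06, SE 0.78, adjusted p = 0.0383) and at 59.4, 62.1 and 113 CPM on day 10 (log2 3.15, SE 0.79, adjusted p = 0.0354), above every iSC library on both days. Kif20a, a kinesin of the central spindle, was at 11.6, 4.66, 19.9, 25.2 and 16.01 CPM in iSCs and at 69.0, 177 and 124 CPM in bSCs on day 6 (log2 2.99, SE 0.70, adjusted p = 0.0232), with no overlap.

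Macrophage markers stood higher in dSCs than in iSCs on every day, with a positive difference for 12 of 12 on each. Their summed level was 293 to 1326 CPM in iSCs and 2622 to 5869 CPM in dSCs on day 1, when 3 of 12 were called and no member was. It was 11358 to 13917 CPM in dSCs on day 4, when 11 of 12 were called higher than in iSCs. In bSCs on day 4 the library with the most mitotic RNA (replicate 0, 3275 CPM of the members) also had the most of the macrophage markers, 15016 CPM against 11211 and 7676 CPM in the others. In bSCs on day 6 the library with the most mitotic RNA (replicate 3, 4531 CPM of the members) had the least of the macrophage markers, 1171 CPM against 4743 and 7928 CPM in the others. The 6 endothelial markers went the other way in dSCs, with 0 of 6 positive on any day. They summed to 1358 to 3680 CPM in iSCs and 232 to 388 CPM in dSCs on day 4, when 1 was called lower (median -2.68). In bSCs 0, 1, 3 and 1 of 6 were positive against iSCs on days 4, 6, 8 and 10. From dSCs to bSCs of the same days 2, 4, 6 and 6 of 6 were positive, with 0 called. The medians were -0.16, 0.31, 1.46 and 0.30. The part of these cells in the single-nerve differences was not tested.

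Between bSCs and dSCs of the same day, edgeR called 0 of the 48 members on days 4, 6, 8 and 10 (0% higher of all genes tested on each day), with 0, 3, 0 and 1 members at an unadjusted p under 0.05 (2.45%, 7.25%, 2.72% and 6.59% of all genes) and 0 called by DESeq2 on each day. The median difference was 0.17 (log2) on day 4, 1.30 on day 6, 0.72 on day 8 and 0.85 on day 10, and 29, 45, 43 and 41 members were higher in bSCs. On day 6 every bSC library stood above every dSC library for 20 members, against 7.6% of all genes tested, and Pttg1 alone of the 48 stood apart the other way (8.71% of all genes). On day 4 this held for 2 members (1.62%), Ube2c and Nusap1, while Espl1 and Mki67 were lower in every bSC library (2.22%). On days 8 and 10 it held for 3 and 8 members (4.36% and 6.82%). For the mean of the 4 daily differences edgeR and DESeq2 called 0 members, with 6 at an unadjusted p under 0.05, against 9.01% of all genes (Ccna2, Plk1, Birc5, Ube2c, Tpx2 and Top2a) and a positive sign for 45 of 48. A test that the difference between the regions was the same on all 4 days gave 0 members at an adjusted p under 0.05 and 0 at an unadjusted p under 0.05 (3.14% of all genes), by edgeR. With the animal as a block, in a fit of the paired libraries only, 8 members reached an unadjusted p under 0.05 (6.79% of all genes). For an adjusted p this held for 0, where the smallest was 0.532 (Racgap1).

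For 10 bSC libraries the labels name a dSC library of the same animal. On day 6 the summed level was 2.56, 2.19 and 2.44 times as high in the bridge as in the distal stump of the same animal, with 41, 39 and 43 of the 48 members higher. On day 4 the ratios were 1.35, 0.965 and 0.965, with 36, 16 and 24 members higher, and on day 8 they were 2.00, 1.78 and 0.802, with 44, 45 and 20 higher. The pair of day 10 had a ratio of 1.94, with 38 members higher. Thus all day 6 animals had more mitotic RNA in the bridge, and the day 4 and day 8 animals were divided.

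**Figure D5:**
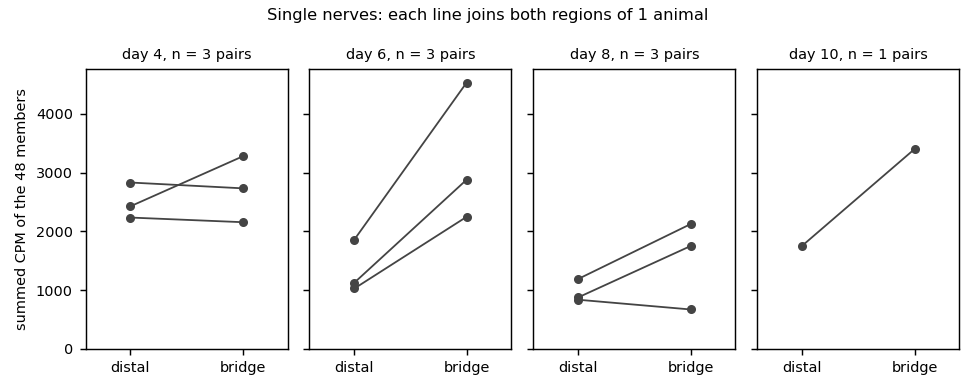
Summed CPM of the 48 members in the distal stump and the bridge of the same animal, 1 line per animal, by day after transection. The bridge was higher in 3 of 3 animals on day 6, in 1 of 3 on day 4, in 2 of 3 on day 8 and in the 1 animal of day 10.

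By gene, 25 of the 48 members (52.1%) were higher in the bridge in at least 8 of the 10 animals, against 8.91% of all genes tested. Smc4 and Ncaph, both of condensin, were higher in 10 of 10 (4.17% of members, 0.335% of all genes), with mean differences of 0.51 (log2, SD 0.59) and 1.21 (SD 1.51). Tpx2 was higher in 8 of 10 (mean 1.93, SD 1.71), Plk1 in 8 of 10 (mean 1.72, SD 1.67) and Ccna2 in 8 of 10 (mean 0.71, SD 0.75). Bub3 was higher in 7 of 10 with a small difference (mean 0.10, SD 0.47), and Pttg1, Espl1 and Cenpf in 4 of 10. Mki67 was higher in 2 of 10 (mean -0.56, SD 0.97), the fewest of the 48. With the animal as a block, the fit held only the 10 pairs and tested 16190 genes. It called 0 members by edgeR on every day and for the mean of the days. The smallest adjusted p was 0.0577, for Tpx2 (log2 2.02, SE 0.49). For the mean of the days 18 members had an unadjusted p under 0.05 with the block, against 15.8% of all genes.

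A second list of 85 genes outside the 48, put together as other mitotic genes, gives the same comparisons. Like the members it was chosen with earlier results of these data known, and it also holds genes with other roles, such as Kif3a. In the pooled nerves 15 of 85 (17.6%) rose in dSCs and 0 fell (median log2 1.71), where 2.63% of all genes tested rose and 2.69% fell. In bSCs 42 rose and 2 fell (median 3.26), where 7.24% of all genes rose and 7.46% fell. The 2 were Kif3a (log2 -1.57, SE 0.30, adjusted p = 0.00359), which encodes a motor subunit of ciliary and axonal transport, and Numa1 (log2 -1.38, SE 0.37, adjusted p = 0.0225), a spindle pole protein. Between bSCs and dSCs 6 (7.06%) were higher and 0 lower, where 2.31% of all genes were higher and 3.11% lower. The largest called were Spc24, of the NDC80 complex (log2 2.30, SE 0.55, adjusted p = 0.0295), Kpna2, an importin (log2 1.58, SE 0.43, adjusted p = 0.0481), and H2afz, the histone variant H2A.Z (log2 1.41, SE 0.22, adjusted p = 0.00497). Against iSCs the largest fitted differences (Aspm, Fam64a and Ska1 in dSCs; Kntc1, Stil and Spag5 in bSCs) belong to genes at or near 0 in the iSC libraries, so no fold is given. In the single nerves 2 and 4 of the 85 rose in dSCs on days 2 and 4, against 0.374% and 1.21% of all genes. In bSCs 5, 5 and 7 rose on days 4, 6 and 10, against 1.13%, 0.818% and 0.889%. Between bSCs and dSCs 0 were called on any day.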

How the data were processed

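Mouse SC RNA was amplified with Smart-seq2, made into Nextera XT libraries and sequenced without strand. The authors aligned reads to mm9 with TopHat2 2.0.11, used HTSeq to count them by gene, and deposited the raw counts; lanes of a library were summed here. HTSeq's categories of unassigned reads and the spike-in controls were left out. Reads on no annotated feature outnumbered the counts on genes in every mouse library (17661471 against 11927906 in pooled iSC replicate 1). Amplified reads are not independent molecules. The rat libraries were not used here. One fit was made per experiment (12 pooled and 35 single-nerve libraries) with edgeR 4.0.16 in R 4.3.3: TMM scaling, filterByExpr by group, quasi-likelihood test and Benjamini-Hochberg adjustment over all genes tested. CPM values carry the TMM factors. The code was tested on simulated data, with 100 genes changed 4-fold and 100 changed 16-fold, up or down, in bSCs. Of those changed 4-fold, the test between bSCs and dSCs called 25 in the pooled nerves and 10 in the single nerves of day 6. Of those changed 16-fold it called 67 and 40, so a count of 0 called does not show that the regions were alike. Groups and animals came from the labels, and 10 bridge and distal libraries were paired by the animal they name; a bSC library of day 10 whose labels point to different animals, and another with no partner, were not paired. Deviations of paired libraries from their group means correlated at -0.062 to 0.677 (mean 0.157, n = 10). Pooled libraries of different regions with the same number carry the same animal number in the labels; their deviations correlated at a mean of -0.014 (n = 10), against 0.0045 (n = 38) for other numbers. Members and gene lists were chosen with earlier results of these data known. Values by library are given for the member of highest mean CPM in each of 9 role groups and for Mki67, Top2a and Ccnb1; called members with the 5 largest changes per comparison were named, and other members were named after their values were seen. Alternatives were DESeq2 1.42.0, its size factors, no filter, the study's filter on genes (at least 100 counts in 85% of single-nerve libraries), replicate blocks, fits of only the groups compared, and leaving out libraries. The study also removed libraries of few genes and kept 4 intact single nerves. All 5 single-nerve iSC libraries were kept here, so the sample set is not the study's own. Some markers are not reported here.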

Additional observations from a re-analysis of the deposited data

Results flagged for a closer look

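A search over 48 sets of values (the summed level and the genes described by library, in groups of 4 or 5 libraries) for 1 library far from the others in its group found 11. The rule gives about 1 in 20 by chance for independent, normally distributed values. That rate does not apply here, since CPM values include zeros and the summed level includes the genes. In iSC single nerve replicate 3 the summed level of the members was 1452 CPM against 476 to 582 CPM in the other 4. In the same library Cdc20 was at 77.1 CPM (0 to 18.05 CPM in the others), Tpx2 at 41.0 CPM (0 to 9.06 CPM), Top2a at 65.3 CPM (0 to 9.84 CPM), Mki67 at 50.5 CPM (0 to 1.53 CPM) and Ccnb1 at 43.5 CPM (0 to 0.102 CPM). In iSC single nerve replicate 1, Ccna2 was at 69.8 CPM (17.4 to 32.5 CPM) and Racgap1 at 0 CPM (14.8 to 18.3 CPM). In pooled bSC replicate 5 the summed level was 4641 CPM (2636 to 2869.6 CPM) and Racgap1 was at 264 CPM (83.4 to 112 CPM). In pooled iSC replicate 2, Tpx2 was at 2.03 CPM and at 0 in the other 3, where any level above 0 would have met the rule.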

How the results depend on the processing

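Over 109 results under alternatives that kept every library or left out the 4 of fewest genes, the count of members called stayed within 1.5 times in 76 and moved in 33, and under the 164 that left out 1 library it stayed in 122 and moved in 42. No alternative called a member lower. DESeq2 called 13 members between pooled bSCs and dSCs (4 by edgeR), 1, 4, 13, 2, 1 and 2 in dSCs from the first to the last day and 11, 17, 1 and 15 in bSCs on days 4, 6, 8 and 10; over all genes it called 1393, 3114 and 1939 in the 3 pooled comparisons, where edgeR called 732, 2022 and 746. With DESeq2's size factors the calls were 2 and 0 in dSCs on days 4 and 6 and 2 in bSCs on day 10. Without a filter they were 2 and 1 in dSCs on days 4 and 8 and 5 and 1 in bSCs on days 4 and 8. With the study's filter on genes, 7171 genes were tested. Calls were then 0 in dSCs on days 2, 6 and 10, 2 in dSCs on day 4 and 4 in bSCs on day 4. With only the regions compared, 7 members were called between pooled bSCs and dSCs (485 of all genes). Without the 4 libraries of fewest genes, an alternative chosen after seeing the data, calls were 0 in dSCs on days 2, 6 and 10, 5 in dSCs on day 4 and 7 in bSCs on days 4, 6 and 10. The cause of these shifts was not tested. With the pool number as a block, 8 members were called in pooled dSCs and 24 in bSCs against iSCs and 1 between bSCs and dSCs (287, 968 and 236 of all genes). The block by animal changed no call of a member in the single nerves. For the mean of the days it called 236 of all genes, against 16 without it. The blocked fit held only the paired libraries and tested 16190 genes, and its day 10 difference rests on 1 animal. These counts therefore differ in more than the block.

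Leaving out each library in turn gave 12 to 22 calls in pooled dSCs, 27 to 34 in pooled bSCs and 1 to 4 between them. In dSCs it gave 0 to 1, 0 to 3, 1 to 9, 0 to 4, 0 to 2 and 0 to 4 from the first to the last day, and in bSCs 1 to 10, 1 to 12, 0 to 2 and 0 to 9 on days 4, 6, 8 and 10. The lowest counts came without iSC replicate 0 (0 in dSCs on days 2, 6 and 10, 2 in bSCs on day 6), iSC replicate 4 (0 in dSCs on days 2, 6 and 10, 1 and 2 in bSCs on days 4 and 10), iSC replicate 5 (0 in dSCs on days 2, 6 and 10), any dSC library of day 6 (0 on that day), dSC day 2 replicate 4 (0), dSC day 10 replicates 0 and 3 (0), bSC day 4 replicates 0 and 2 (1), bSC day 6 replicate 1 (1) and bSC day 10 replicates 0 (2) and 3 (0), and iSC replicate 1 gave 0 in dSCs on day 6. The Mki67 difference between pooled bSCs and dSCs, -0.03, ranged from -0.25 (without dSC replicate 3) to 0.30, and its sign turned to 0.24 without bSC replicate 2, 0.30 without dSC replicate 1 and 0.02 without dSC replicate 5, none of them past the test. Low counts limit the differences of Bub1, Aurkb, Cdc25c, Ttk and Nuf2 against iSCs, since their iSC counts in the pooled nerves were between 0 and 19 over 4 libraries. Why these counts were low was not tested.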
